A study of Rattus norvegicus with 138 samples.

Results

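Serum miRNAs of rats with embedded metal pellets were compared between 3 mo and 1 mo after implantation, over 7 metals with equal weight for each metal. The metals were lead (Pb), copper (Cu), depleted uranium (DU), cobalt (Co), tungsten (W), aluminium (Al) and iron (Fe). All libraries came from male Sprague-Dawley rats, 3 mo old at surgery, that carried 4 pellets of 1 metal in the gastrocnemius muscles, so every group shares the surgery and an implant, and no group without an implant was compared. The comparison used 53 of the 138 libraries of the series, 27 from 1 mo and 26 from 3 mo. From the 56 libraries of these metals and times, 3 with a column sum under 20000 counts were left out by rule. They were Al at 3 mo replicate 3 (7909 counts), DU at 3 mo replicate 4 (518) and Co at 1 mo replicate 1 (12213), which leaves n = 3 in those groups and n = 4 in the others. Tantalum (Ta), the inert surgical control, and nickel (Ni) were kept out of the mean and are set beside it below. The labels number replicates within a group and do not say whether a number is the same rat at both times, so each p measures the spread between these libraries. Rats at 3 mo were also older and their serum was drawn later, and age, time since surgery and the handling of each draw cannot be told apart.

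A miRNA is a short RNA that guides Argonaute proteins to messenger RNAs, mainly by pairing of its seed, bases 2 to 8, with the target. In serum miRNAs travel in vesicles, bound to Argonaute or on lipoproteins, and they come from blood cells, platelets, endothelium, liver and other tissues. The let-7 family is a large group with 1 common seed that restrains growth genes and is abundant in mature tissues, miR-223 is a myeloid and platelet miRNA, miR-191 is abundant in blood cells, and miR-1 and miR-206 are made in striated muscle. A sequencing library gives the share of each miRNA among the miRNA counts and not its amount in serum, so a fall of an abundant miRNA raises the shares of others.

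The miRNAs with the clearest differences are shown by their mature sequence (5′ to 3′, RefSeq, GRCr8), with the seed in capitals, because members of 1 family differ by few bases and rose together. The first set are miRNAs that were higher at 3 mo.
let-7a-5p: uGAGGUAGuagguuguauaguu
let-7f-5p: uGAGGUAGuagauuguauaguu
let-7g-5p: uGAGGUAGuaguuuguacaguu
let-7c-5p: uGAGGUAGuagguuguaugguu
let-7i-5p: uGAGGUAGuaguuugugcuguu
let-7b-5p: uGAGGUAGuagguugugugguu
miR-30e-5p: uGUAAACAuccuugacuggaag
miR-30c-5p: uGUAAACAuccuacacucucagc
miR-223-3p: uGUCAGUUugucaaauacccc
miR-21-5p: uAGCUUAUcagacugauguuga

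The second set, below, were lower at 3 mo, and none of these 8 shares its seed with another of the set.
miR-191a-5p: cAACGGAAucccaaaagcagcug
miR-24-3p: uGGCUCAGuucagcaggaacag
miR-423-5p: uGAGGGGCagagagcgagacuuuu
miR-501-3p: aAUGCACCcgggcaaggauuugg
miR-351-3p: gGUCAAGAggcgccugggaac
miR-503-5p: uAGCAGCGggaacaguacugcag
miR-25-5p: aGGCGGAGacacgggcaauugc
miR-877: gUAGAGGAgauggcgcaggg

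Between 1 mo and 3 mo the serum profile moved from miR-191a-5p towards the let-7 family. At 3 mo let-7a-5p and 7 more let-7 members, miR-30e-5p, miR-223-3p and miR-21-5p were higher, while miR-191a-5p, miR-24-3p, miR-423-5p and a long series of rare miRNAs were lower. Of 471 miRNAs counted, 272 passed the filter on low counts, and edgeR called 144 of them (52.9%), 26 higher (9.56%) and 118 lower (43.4%). The 26 include 1 passenger strand counted under 2 names. The fitted direction was the same in 7 of 7 metals for 18 miRNAs that were higher (6.62% of those tested), all 18 of them called, and for 55 that were lower (20.2%), of which 54 were called. A further 6 higher and 36 lower calls had the same direction in 6 of 7 metals. The median log2 difference of all 272 was -1.77, so a miRNA with no change in its share of the library sits well above the middle of the list. Under DESeq2 size factors that median was -1.31 and with plain library totals -1.40.

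Direct tests were not possible for every miRNA. For 61 of the 272 at least 1 metal had no count at 1 mo and at least 1 had none at 3 mo, so the mean over metals was undefined on the log scale and the miRNA could not be called. With 1 time effect common to all metals, which is defined for all 272, edgeR called 141 (27 higher, 114 lower). These held 114 of the 144 calls, all 26 higher ones and 88 of the 118 lower ones, and 27 of the 61 undefined miRNAs, of which miR-598-3p, detected in 1 library at 1 mo and 2 at 3 mo, was the 1 higher.

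**Figure D1:**
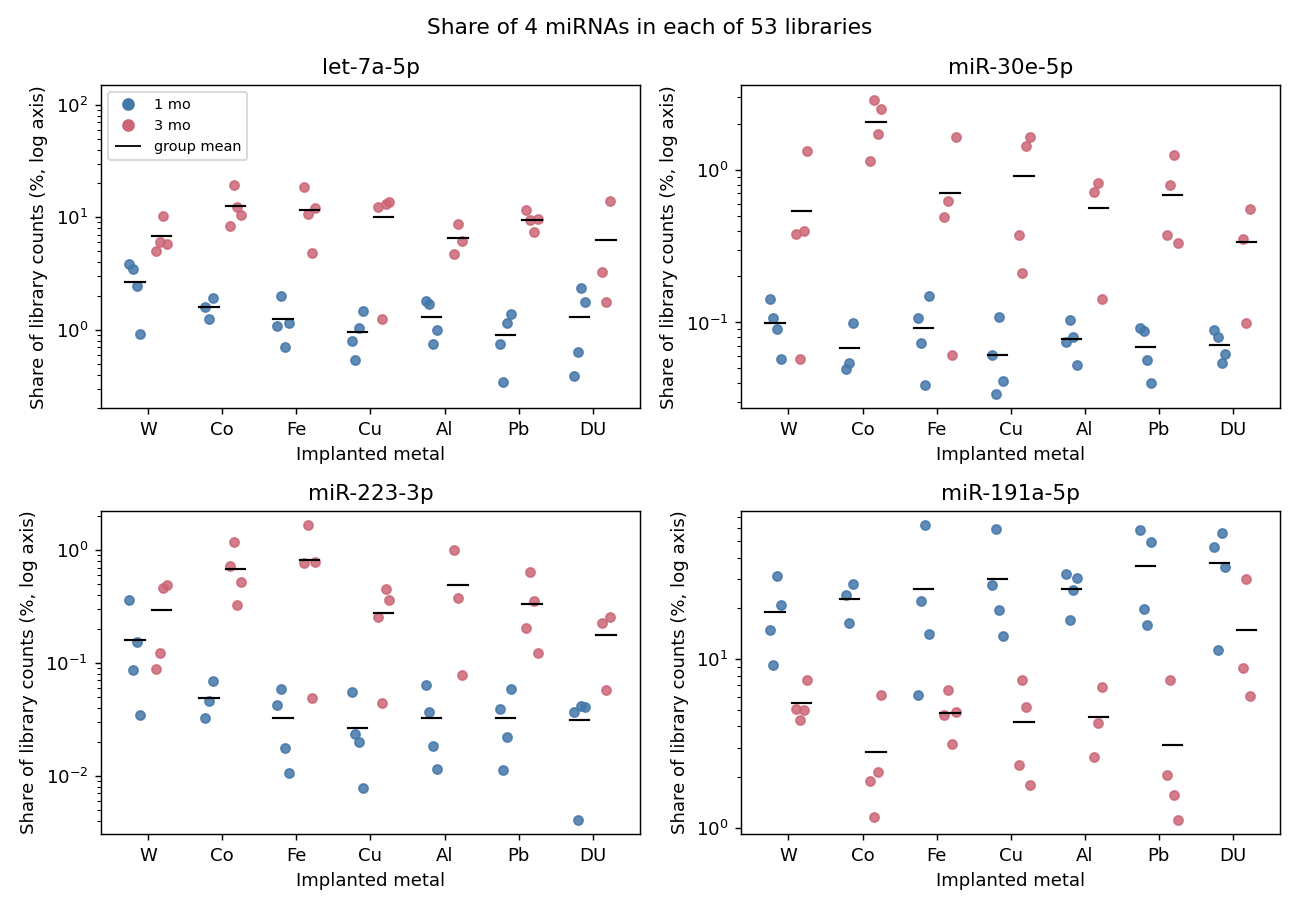
Share of library counts (percent, log axis) of let-7a-5p, miR-30e-5p, miR-223-3p and miR-191a-5p in each of 53 libraries by implanted metal. Blue points are 1 mo, red points 3 mo and black bars group means. The first 3 were higher and miR-191a-5p lower at 3 mo in all 7 metals.

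The increase with the smallest adjusted p was that of let-7a-5p. It made up 0.345% (lowest), 1.15% (median) and 3.81% (highest) of the counts in the 27 libraries at 1 mo, and 1.26%, 9.62% and 19.2% in the 26 at 3 mo. The groups overlapped little: 23 of 26 libraries at 3 mo lay above every library at 1 mo. Its fitted log2 difference was 2.06 ± 0.24 (SE, adjusted p = 1.04e-09), from 1.18 in DU to 2.81 in Fe, and positive in 7 of 7 metals. In 4 metals all 3 mo libraries stood above all 1 mo libraries on the CPM scale, where 2.31% of all pairs of a miRNA and a metal did so and 16.6% of pairs had all 3 mo libraries below.

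The let-7 family has 9 members past the filter, all with the seed GAGGUAG. Of these 8 rose and none fell, where 9.56% of all tested were higher. The median log2 difference of the 9 was 1.50, against -1.77 for all 272 tested. The share of let-7f-5p went from a median of 1.66% (0.362% to 8.68%) to 10.4% (1.62% to 16.7%), a log2 difference of 1.69 ± 0.23 (adjusted p = 4.13e-08). For let-7g-5p the median rose from 0.891% (0.170% to 2.98%) to 5.62% (1.04% to 10.6%), with 20 of 26 libraries above all of 1 mo and a log2 difference of 1.73 ± 0.23. Both were higher in 7 of 7 metals. The share of let-7c-5p rose from a median of 1.75% to 7.50% (log2 1.50 ± 0.22, adjusted p = 3.04e-07, 7 of 7) and that of let-7b-5p from 0.539% to 1.93% (1.10 ± 0.25, adjusted p = 0.000223, 7 of 7). The share of let-7i-5p rose from 0.303% to 0.906% (1.22 ± 0.25, adjusted p = 7.60e-05) in 6 of 7 metals, with W at -0.41. The 2 rarer called members were let-7d-5p (1.16 ± 0.30) and miR-98-5p (1.63 ± 0.58, adjusted p = 0.0143), a let-7 by seed under another name, each higher in 7 of 7. The call of miR-98-5p was lost without Co at 3 mo replicate 3 (0.87, adjusted p = 0.175) or without Fe at 3 mo replicate 4 (1.07, adjusted p = 0.0917). The ninth, let-7e-5p, had a log2 difference of 0.41 ± 0.49 (adjusted p = 0.592). Members differ by few bases, so reads with an error or a trimmed end could be counted under a neighbour, and the family total is firmer than the split among members.

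Passenger strands of let-7 precursors were also among the 12 leading increases, on thin evidence. The names let-7c-2-3p and let-7a-1-3p have 1 identical sequence and identical counts, so they are 1 measurement. It was detected in 10 of 27 libraries at 1 mo and 11 of 26 at 3 mo, with a median share of 0 at both times and a highest share of 0.0184% and 0.251%. The groups therefore overlapped almost fully by detection, and the call (adjusted p = 0.000408) came from a few high libraries. Without Cu at 3 mo replicate 1, Al at 3 mo replicate 4 or DU at 3 mo replicate 3 the call was lost, since that metal then has no count at 3 mo and the contrast is undefined.

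The miR-30 family, whose members are abundant in many epithelia and in heart and share the seed GUAAACA in the 3 members with a sequence here, moved the same way in part. Of 4 tested members 3 rose and none fell, where 9.56% of all tested were higher. The median log2 difference of the 4 was 1.14, against -1.77 for all 272. The share of miR-30e-5p was 0.0341% (lowest), 0.0750% (median) and 0.150% (highest) at 1 mo, and 0.0575%, 0.590% and 2.88% at 3 mo. All but 4 of the 26 libraries at 3 mo exceeded every library at 1 mo. Its log2 difference was 2.57 ± 0.31 (adjusted p = 2.71e-09), positive in 7 of 7 metals and widest in Co (4.46). The share of miR-30c-5p rose from a median of 0.159% to 0.616% (1.46 ± 0.29, adjusted p = 5.07e-05, 7 of 7) and that of miR-30d-5p from 0.377% to 1.12% (0.82 ± 0.21, adjusted p = 0.000759, 7 of 7). The fourth member, miR-30a-5p, had a difference of 0.42 ± 0.28 (adjusted p = 0.216).

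Myeloid miR-223-3p rose by a similar size with a wider scatter. Its share was 0.00411% (lowest), 0.0370% (median) and 0.361% (highest) at 1 mo, and 0.0444%, 0.357% and 1.65% at 3 mo. At 3 mo 12 of 26 libraries lay above all of 1 mo, and the highest libraries at 1 mo were 2 of W (0.361% and 0.154%). The log2 difference was 2.57 ± 0.35 (adjusted p = 8.07e-08), positive in 7 of 7 metals, from 0.56 in W to 4.42 in Fe. The injury and fibrosis miRNA miR-21-5p rose from a median share of 0.184% to 0.600%, with 18 of 26 libraries above all of 1 mo (1.06 ± 0.24, adjusted p = 0.000293, 7 of 7).

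The decrease with the smallest adjusted p was in miR-191a-5p, the most abundant miRNA at 1 mo. It took 6.15% (lowest), 23.9% (median) and 62.0% (highest) of the counts at 1 mo, and 1.12%, 4.78% and 29.9% at 3 mo. By share, 19 of 26 libraries at 3 mo lay below every library at 1 mo. The log2 difference was -3.05 ± 0.33 (adjusted p = 4.06e-10), negative in 7 of 7 metals, from -4.46 in Pb to -1.93 in DU. It led the counts in 20 of 27 libraries at 1 mo and in 1 of 26 at 3 mo, where let-7f-5p led in 7, miR-10a-5p in 8 and let-7a-5p in 4.

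Other abundant miRNAs fell by less. The share of miR-24-3p, which is made with miR-23 and miR-27 from 2 clusters, went from a median of 4.42% (2.09% to 12.4%) to 2.64% (0.788% to 8.00%). The groups overlapped, with 11 of 26 libraries at 3 mo below all of 1 mo. Its log2 difference was -1.41 ± 0.21 (adjusted p = 4.76e-07), negative in 7 of 7 metals. All 5 tested members of those clusters were called lower, where 43.4% of all tested were. Their median was -1.54 against -1.77 for all 272, or -1.44 against -1.03 with groups at 0 set to a bound of 3 counts. The call of miR-27a-3p (-1.05 ± 0.46, adjusted p = 0.0486) was lost in 51 of 69 alternatives, 40 of them with 1 library left out, and stood at -0.32 (adjusted p = 0.680) under DESeq2 size factors. That of miR-23b-3p was lost with 1 common time effect and in 5 other alternatives, and without Co it stood at -0.43. The share of miR-423-5p went from a median of 0.798% to 0.453% (-1.68 ± 0.26, adjusted p = 6.08e-07) in 6 of 7 metals, with Fe at 0.12. The smooth muscle miRNA miR-143-3p went from 4.84% to 2.79% (-1.51 ± 0.28, adjusted p = 3.06e-05, 7 of 7), and the inflammation-induced miR-146a-5p from 0.782% to 0.312% (-1.70 ± 0.40, adjusted p = 0.000408, 7 of 7). These sizes depended on the TMM scaling. Under DESeq2 size factors miR-24-3p stood at -0.66, miR-423-5p at -0.88, miR-143-3p at -0.84, miR-146a-5p at -1.01 and miR-191a-5p at -2.43, all still called, and let-7a-5p at 2.81.

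Among miR-10, miR-99, miR-100 and miR-125, of which the miR-10 genes lie in HOX clusters and several members are near-identical, 5 of 7 tested members fell and none rose, where 43.4% of all tested were lower. Their median was -1.37, where all 272 had -1.77. With groups at 0 set to a bound of 3 counts the list kept -1.37, and all 272 had -1.03. The share of miR-10a-5p was 13.2% (1.34% to 35.0%) at 1 mo and 5.90% (0.641% to 36.1%) at 3 mo, so the groups overlapped nearly throughout. Its log2 difference was -1.37 ± 0.41 (adjusted p = 0.00413) in 6 of 7 metals, and that of miR-10b-5p was -1.03 ± 0.29 (adjusted p = 0.00219) in 6 of 7, each with W on the other side. These calls depended on the scaling. Under DESeq2 size factors miR-10a-5p stood at -0.84 (adjusted p = 0.0551) and miR-10b-5p at -0.36 (adjusted p = 0.295), and without the metal Co they stood at -0.91 (adjusted p = 0.0654) and -0.50 (adjusted p = 0.174). The calls of miR-99a-5p and miR-100-5p were lost in the same 2 alternatives (that of miR-100-5p also with library totals), whereas miR-99b-5p (-1.71 ± 0.34, adjusted p = 5.43e-05) was called in each of them.

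A cluster on the X chromosome that makes miR-322, miR-503, miR-351, miR-450 and miR-542, known from muscle differentiation and cell cycle exit, was lower at 3 mo. Of the 10 tested products on the list 8 fell and none rose, where 43.4% of all tested were lower. The other 2 had no defined test. At least 1 group had no count for 8 of the 10, as for 171 of all 272. The list leaves out miR-450b-5p, called lower (22 of 27 and 3 of 26 libraries, adjusted p = 0.000118, lower in 5 of 7 metals), and miR-450b-3p (14 and 3 libraries), which had no defined test. Their median log2 difference was -4.06, or -2.98 with groups at 0 set to a bound of 3 counts, where all 272 had -1.77 and -1.03. The share of miR-351-3p was 0.0561% (lowest), 0.333% (median) and 0.673% (highest) at 1 mo, with counts in 27 of 27 libraries, and 0%, 0% and 0.105% at 3 mo, with counts in 10 of 26 (adjusted p = 1.29e-06, lower in 7 of 7 metals). Detection of miR-503-5p went from 27 of 27 libraries to 6 of 26, and by share of counts 2 of those 6 lay above all of 1 mo, by scaled CPM 0 (adjusted p = 7.58e-06, 6 of 7). Detection of miR-351-5p went from 27 to 12 libraries (adjusted p = 7.60e-05), that of miR-542-3p from 22 to 3 (adjusted p = 5.43e-05) and that of miR-322-3p from 27 to 18, at -2.29 ± 0.65 (adjusted p = 0.00260).

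Many other decreases were also losses of detection. Of the 118 lower calls 88 were of miRNAs detected in fewer than 13 of the 26 libraries at 3 mo, 85 had at least 1 group with no count, and 13 were detected in all 53 libraries. Detection of miR-455-3p went from 24 of 27 libraries to 1 of 26 (adjusted p = 5.59e-07, lower in 7 of 7 metals). For miR-877 it went from 27 to 7 (adjusted p = 1.53e-05, 7 of 7), for the passenger strand miR-25-5p from 27 to 13 (adjusted p = 1.53e-05, 7 of 7) and for miR-125a-3p from 25 to 4 (adjusted p = 1.53e-05, 7 of 7). The smooth muscle miRNA miR-145-5p was detected in 26 and then 10 libraries (adjusted p = 1.47e-05, 7 of 7), and miR-149-5p in 23 and then 2 (adjusted p = 1.47e-05, 6 of 7). The share of miR-501-3p, detected in 27 and 21 libraries, went from a median of 0.125% to 0.0505% (-2.49 ± 0.46, adjusted p = 2.14e-05, 6 of 7). No count of miR-134-5p or miR-181a-2-3p was present in the 26 libraries at 3 mo, against detection in 16 and 15 of 27 at 1 mo. Both were rare at 1 mo, with median shares of 0.000404% and 0.000617%, and most 3 mo libraries were shallower, so a missing count can reflect depth. The call of miR-134-5p was lost without DU at 1 mo replicate 3 and with the replicate block.

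**Figure D2:**
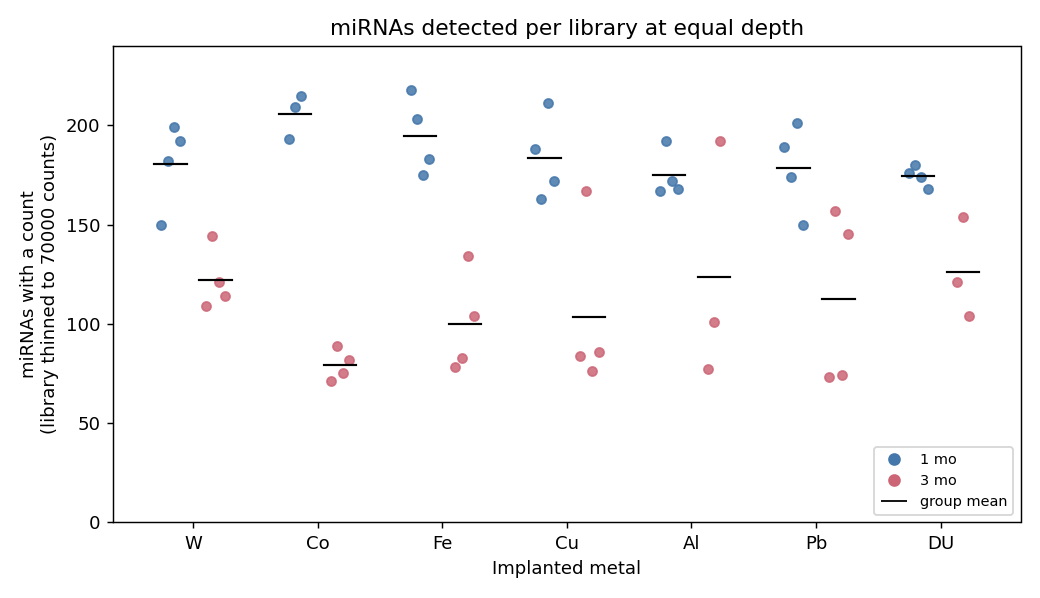
Number of miRNAs with at least 1 count in each of 53 libraries after thinning every library to 70000 counts, by implanted metal. Blue points are 1 mo, red points 3 mo and black bars group means. The median was 182 at 1 mo and 102.5 at 3 mo, and 1 library each of Al, Cu, Pb and DU at 3 mo lay within the range of all 1 mo libraries.

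Depth and the number of kinds of miRNA moved with these losses. Totals were 463512 to 3743726 counts (median 1462181) at 1 mo and 70454 to 4884425 (median 316044) at 3 mo, a mean log2 difference of -1.56 (permutation within metal, adjusted p = 6.00e-05). At an equal depth of 70000 counts a library held 150 to 218 miRNAs at 1 mo (median 182) and 71 to 192 at 3 mo (median 102.5), a mean difference of -75.2 (permutation p = 1e-05, the smallest these resamples can give). The number was lower at 3 mo in 7 of 7 metals, and the libraries of the 2 times did not overlap in 4. With all libraries thinned to this depth edgeR called 99 miRNAs, 26 higher and 73 lower. The share of the most abundant miRNA fell by 13.2 percentage points (adjusted p = 0.00016) and that of the first 10 by 6.45 (adjusted p = 0.0005, permutation within metal).

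Detection was uneven among 3 mo libraries. Of 108 tested miRNAs seen in all 27 libraries at 1 mo, the 3 mo libraries held 62 to 108. The 108 were chosen by the 1 mo libraries, so a 3 mo library could only hold as many or fewer. These numbers describe the spread among 3 mo libraries, without thinning. The 4 Co libraries held 62 to 77. Al replicate 4 (4884425 counts) held all 108, and Fe replicate 3 held 96 at a total of 77112 counts. DU replicate 2 held 107 at 2062074 counts, Cu replicate 2 held 104 at 3354080, and Pb replicate 1 held 64 at 350296.

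Among the 39 miRNAs detected in all 53 libraries, a set that leaves out every miRNA lost from any 3 mo library, 18 rose, 13 fell and 8 were not called, and their median log2 difference was 0.33. The 13 were miR-191a-5p, miR-24-3p, miR-423-5p, miR-143-3p, miR-99b-5p, miR-151-3p, miR-27b-3p, miR-22-3p, miR-146a-5p, miR-99a-5p, miR-10b-5p, miR-10a-5p and miR-151-5p. The 8 without a call included the liver miRNA miR-192-5p (-0.53 ± 0.23, adjusted p = 0.0526), whose sign changed with the scaling (0.24 under DESeq2 size factors), miR-92a-3p (0.33 ± 0.25) and miR-142-5p (-0.18 ± 0.28).

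**Figure D3:**
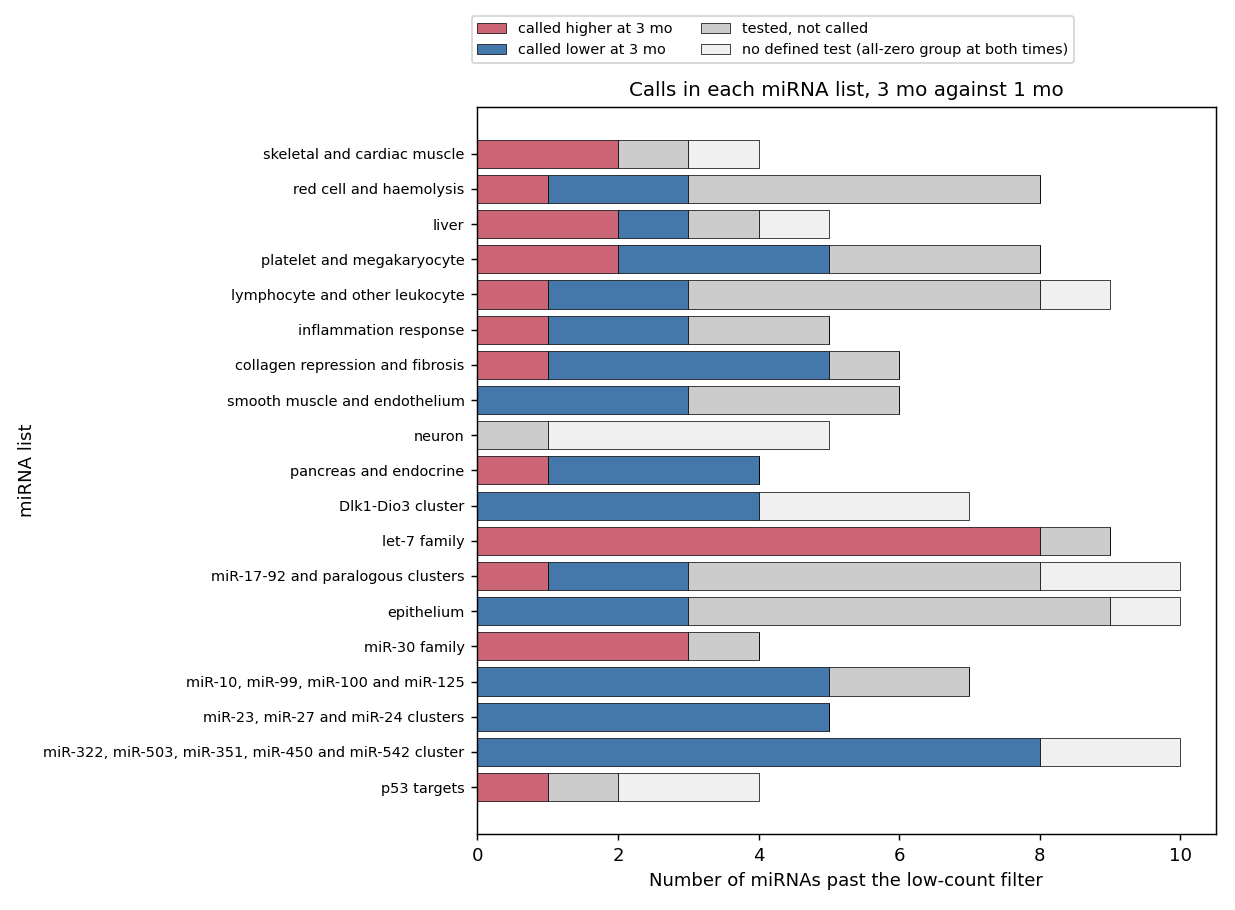
Number of miRNAs past the low-count filter in each of 19 lists (horizontal axis), split into called higher (red), called lower (blue), tested and not called (grey) and without a defined test because a group had no count at both times (white). The let-7 and miR-30 lists held no lower call, and 8 of 10 products of the miR-322 cluster were called lower. Over all tested miRNAs 43.4% were called lower.

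Lists of tissue and blood miRNAs gave mixed directions, against 9.56% higher and 43.4% lower among all tested. Muscle is the tissue that held the pellets. Of its 8 miRNAs 4 were tested, 2 were higher, 1 was not called and 1 had no defined test. The share of miR-1-3p went from a median of 0.00768% (0% to 1.41%) to 0.0668% (0% to 2.24%), with counts in 25 of 27 and 20 of 26 libraries, a log2 difference of 2.91 ± 0.83 (adjusted p = 0.00262) in 5 of 7 metals. For miR-206-3p the median went from 0.0290% to 0.178% (1.84 ± 0.61, adjusted p = 0.00996) in 6 of 7, with Co on the other side. The groups overlapped for both, and miR-133a-3p, detected in 11 and 8 libraries, had a difference of -1.58 ± 1.11 (adjusted p = 0.259). Reads of miR-1-3p, miR-1b and miR-206-3p, which have the seed GGAAUGU and similar ends, can be divided among the 3 names.

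In the liver list 2 of 5 tested were higher and 1 lower. The lower one was miR-455-5p, a rare miRNA detected in 11 of 27 libraries at 1 mo and 1 of 26 at 3 mo. The hepatocyte miRNA miR-122-5p went from a median share of 2.26% (0.123% to 7.89%) to 5.76% (0.392% to 32.4%), with 6 of 26 libraries above all of 1 mo (0.99 ± 0.29, adjusted p = 0.00374, 6 of 7, with W at -0.42). Of 8 red cell miRNAs 1 was higher and 2 lower. Erythroid miR-451-5p went from 0.118% to 0.392% (1.01 ± 0.38, adjusted p = 0.0207, 7 of 7), a call lost without W and without any 1 of 4 libraries (0.68 without Fe at 3 mo replicate 3), while miR-16-5p, detected in 27 and 22 libraries, had a difference of -1.05 ± 0.51 (adjusted p = 0.0769) and miR-144-3p one of -1.23 ± 0.59 (adjusted p = 0.0750). The summed CPM of this list was 4701 to 34270 at 1 mo (median 12799) and 5309 to 37393 at 3 mo (median 15925). With a red-cell score as covariate 156 miRNAs were called, 26 higher and 130 lower. With 1 common time effect neither list had a lower call.

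Platelet and leukocyte lists split as well. Of 8 platelet miRNAs 2 rose (miR-223-3p and miR-199a-3p, 1.23 ± 0.36) and 3 fell (miR-191a-5p, miR-24-3p and miR-130a-3p). Of 9 leukocyte miRNAs 1 rose (miR-223-3p) and 2 fell, miR-146a-5p and the lymphocyte miRNA miR-342-3p (-2.05 ± 0.42, adjusted p = 8.38e-05). The T and B cell miRNA miR-150-5p stood at -0.01 ± 0.41. Of 5 inflammation miRNAs miR-21-5p rose, miR-146a-5p and miR-146b-5p (-1.82 ± 0.43) fell, and miR-155-5p, detected in 22 and 5 libraries, was not called by edgeR (adjusted p = 0.205) but was called lower by DESeq2 (adjusted p = 3.1e-06).

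Fibrosis-related miRNAs had 1 higher and 4 lower of 6 tested. The collagen-repressing miR-29a-3p stood at -1.23 ± 0.39 (adjusted p = 0.00605), but at -0.60 (adjusted p = 0.184) under DESeq2 size factors, and its call was also lost with library totals, in DESeq2 and without Co. Detection of miR-29b-3p went from 27 to 9 libraries (adjusted p = 0.000663), a call lost without Co. With 1 common time effect 2 of the 4 were also called lower, miR-29a-3p and miR-214-3p. The smooth muscle and endothelium list had 3 of 6 lower, miR-143-3p, miR-143-5p and miR-145-5p. Among those not called were miR-145-3p (-0.27 ± 0.50, adjusted p = 0.823, detected in 27 and 24 libraries) and the endothelial miR-126a-3p (-0.92 ± 0.56, adjusted p = 0.179). In the pancreas and endocrine list miR-375-3p rose (1.34 ± 0.35, adjusted p = 0.00104, 7 of 7) and miR-7a-5p, miR-217-5p and miR-148a-3p were called lower. Of these, miR-7a-5p was higher in 4 of 7 metals and stood at -1.05 (adjusted p = 0.303) without Co, miR-148a-3p (-0.94) lost its call in 31 of 69 alternatives, and miR-217-5p lost it in 8 of 68. Of 10 tested miRNAs of miR-17-92 and related clusters 1 was higher (miR-25-3p, 0.71 ± 0.25, a call lost in 7 of 70 alternatives) and 2 lower, miR-106b-5p and miR-93-5p, both lost with 1 common time effect. Of 10 epithelial miRNAs 3 were lower, of which 1 was called with the common effect. For the neuron list 4 of 5 had no defined test and 0 were called, with 4 lower under the common effect. Of 7 tested Dlk1-Dio3 miRNAs 4 were lower and 3 had no defined test. Of 4 tested p53-related miRNAs 1 was higher, miR-194-5p, and the hypoxia miRNAs did not pass the filter.

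**Figure D4:**
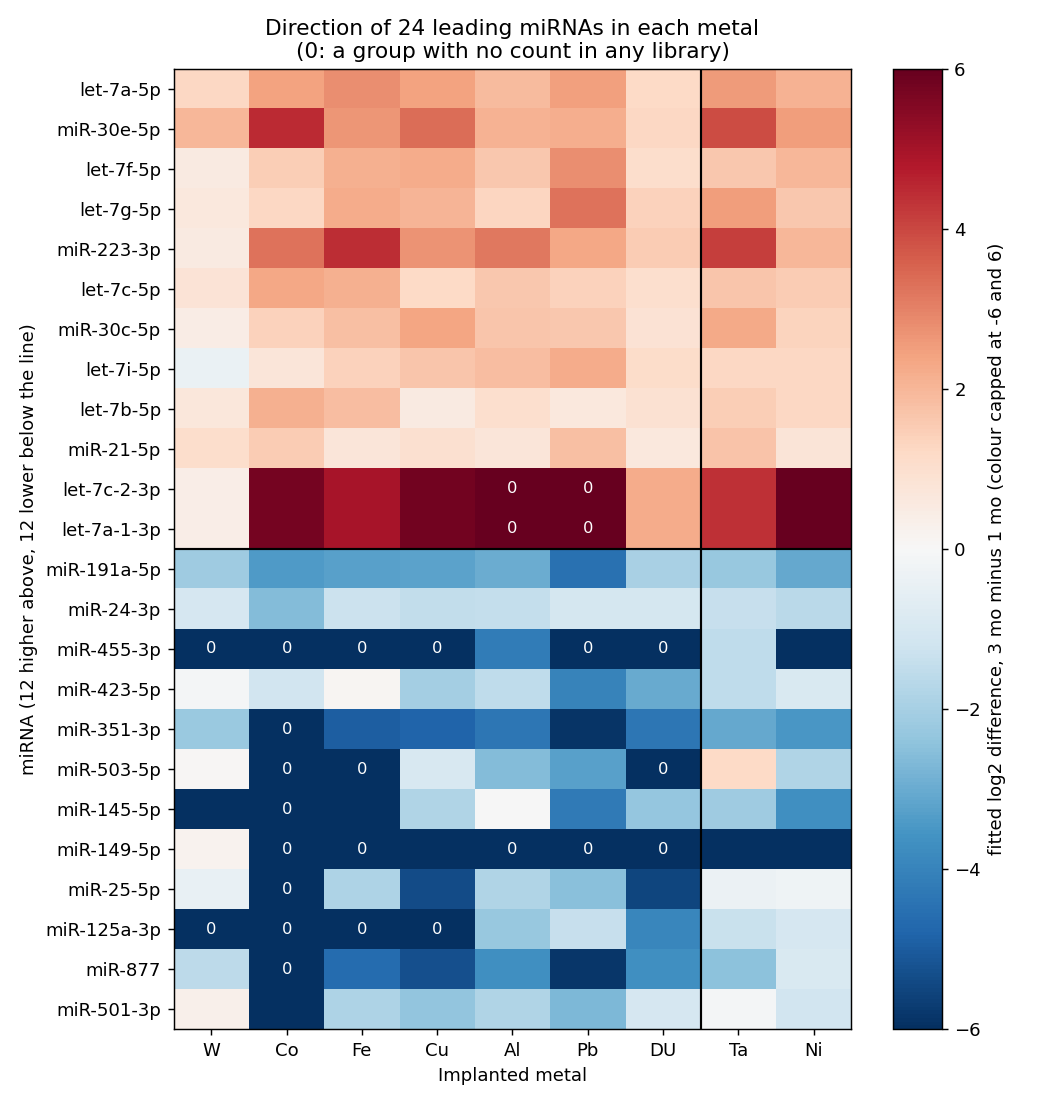
Fitted log2 difference (3 mo minus 1 mo, colour, capped at -6 and 6) of the 12 leading increases and 12 leading decreases (rows) in each metal (columns), with Ta and Ni to the right of the line. A white 0 marks a metal in which all libraries of 1 time had no count, where the fitted size has no meaning.

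Across the 24 leading miRNAs the 7 metals had the same direction for 11 of 12 increases (10 of 11 when the passenger strand under 2 names is counted once) and 8 of 12 decreases, and 6 of 7 did for the remaining 5. In 4 of these 5 (let-7i-5p, miR-503-5p, miR-149-5p and miR-501-3p) the exception was W, and for miR-423-5p it was Fe. Over all 144 calls W went the other way for 29, more than any other metal, and Co for 6. The median log2 difference of the 26 higher miRNAs was 0.62 in W and 1.40 to 2.24 in the other 6 metals. For the 13 lower miRNAs seen in all libraries it was -0.67 in W and -1.29 to -2.54 elsewhere.

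Single metals gave few calls by edgeR with 3 or 4 libraries a group. There were 42 in Co (15.4%; 6 higher, 36 lower), 12 in Fe (4.41%), 5 in Pb (1.84%), 4 in Cu (1.47%) and 0 in each of W, Al and DU (0%), where 51, 35 and 49 miRNAs had an unadjusted p under 0.05. DESeq2 called 105 in Co, 64 in Fe, 54 in Pb, 41 in Cu, 38 in W, 37 in DU and 28 in Al. Leaving out 1 library moved the edgeR count in Co to 18 (without Co at 3 mo replicate 2) to 63, in Fe to 2 (without Fe at 3 mo replicate 2) to 23 (without Fe at 3 mo replicate 3), in Cu to 0 (without Cu at 3 mo replicate 3) to 38 (without Cu at 3 mo replicate 2) and in Pb to 4 to 19 (without Pb at 3 mo replicate 2). The calls in Co included miR-24-3p (-2.58 ± 0.58, adjusted p = 0.00294) and miR-30e-5p, and miR-191a-5p was called in Co, Fe, Cu and Pb.

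The joint test of whether metals differed in the change called 0 of 272 miRNAs (0%), with 52 at an unadjusted p under 0.05 and a smallest adjusted p of 0.0833, for miR-423-5p. The latter stood at -3.99 ± 0.71 in Pb and -3.04 ± 0.77 in DU, and at -0.11 ± 0.63 in W and 0.12 ± 0.63 in Fe. Without the low-count filter the joint test called 20, and leaving out 1 library gave 0 to 9 calls, 9 of them without Al at 3 mo replicate 4. A missing call does not show that the metals acted alike.

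Rats with Ta pellets, the surgical control, had the same direction in most of the leading miRNAs. With 7 Ta libraries (4 at 1 mo, 3 at 3 mo) the difference of let-7a-5p was 2.54 ± 0.67 (adjusted p = 0.0234), that of miR-30e-5p 3.90 ± 0.82 (adjusted p = 0.00383) and that of miR-223-3p 4.15 ± 1.00 (adjusted p = 0.0154). These 3, let-7g-5p and miR-30d-5p were the 5 calls in Ta (1.89% of 265). Ta had the sign of the mean of the 7 metals for 24 of the 26 higher and 95 of the 118 lower calls, and for 12 of 12 leading increases and 11 of 12 decreases, with miR-503-5p at 1.19 ± 1.96. The median log2 difference of the 26 was 1.69 in Ta and 1.57 in the 7 metals, and that of the 118 was -1.39 and -3.27. For the 12 leading decreases it was -1.51 and -5.04. These sets were chosen by their values in the 7 metals and not in Ta, so the medians are not on an equal footing. The fitted values of the decreases also hold groups with no count, at least 1 for 85 of the 118. The value of miR-191a-5p in Ta was -2.26 ± 0.87 (adjusted p = 0.189).

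No miRNA was called in the test of the 7 metals against Ta (edgeR, 0 of 265, 0%), where 24 had an unadjusted p under 0.05 and DESeq2 called 40. The same test against Ni called 0 of 274 (0%), with 15 at an unadjusted p under 0.05 and 50 by DESeq2. Ni alone, with 7 libraries, had 0 calls, and its sign was that of the mean for 25 of 26 higher and 98 of 118 lower calls and for all 24 leading miRNAs. Its values were 2.10 ± 0.61 for let-7a-5p, 2.51 ± 0.79 for miR-30e-5p and -3.09 ± 0.95 for miR-191a-5p.

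**Figure D5:**
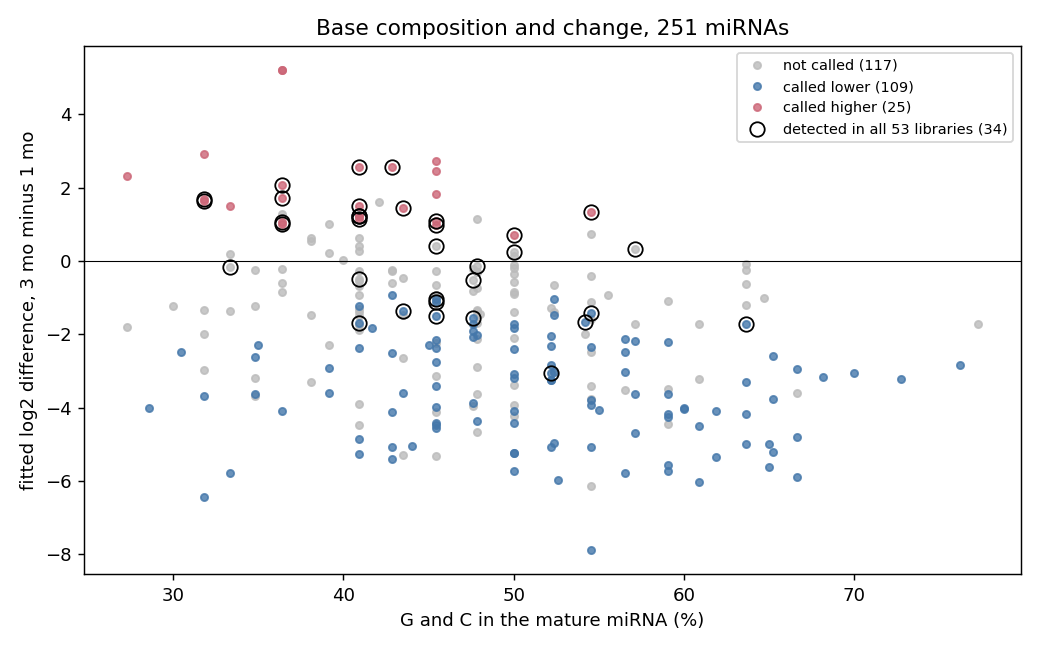
Fitted log2 difference (vertical axis) against the percentage of G and C in the mature miRNA (horizontal axis) for 251 miRNAs with a sequence. Red is called higher, blue called lower and grey not called, and rings mark 34 miRNAs detected in all 53 libraries. Calls higher numbered 11 of 45 miRNAs under 40% GC and 0 of 31 at 60% or more.

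The sequences of the 2 sets differed in base composition. The median GC content was 40.9% in 25 miRNAs called higher, 52.2% in 109 called lower and 47.6% in 117 not called. U was the first base of 72% of the higher, 37.6% of the lower and 42.6% of all 251. Of 45 miRNAs under 40% GC 11 were higher and 11 lower, and of 31 at 60% or more 0 were higher and 22 lower. Spearman's rho between GC content and the log2 difference, as a description across miRNAs that share all libraries, was -0.37 over 251 and -0.57 over the 34 detected in every library, and -0.38 over 26 of those when the let-7 family was left out. With mean abundance in place of GC content it was 0.50 over 251 and -0.37 over the 34. Among the 34 the median GC content was 40.9% in the 17 higher, 46.5% in the 10 lower and 47.6% in the 7 not called. The first base differed less in this set, with U in 76.5% of the 17 higher, 60% of the 10 lower and 67.6% of all 34. In the single metals rho with GC content was -0.41 to -0.16 over 251, with -0.19 in Ni over 251 and -0.22 in Ta over 241. Over the 34 it was -0.61 (Pb) to -0.40 (DU) in the single metals, -0.61 in Ta and -0.54 in Ni. The part of base composition in the differences was not tested.

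The leading miRNAs were chosen for their difference between 3 mo and 1 mo in these libraries. That 3 mo lay beyond 1 mo was therefore largely set by the choice, and the same count over all tested miRNAs was not made. Among the 4 draws of the same metals the median CPM was highest at 3 mo for 10 of the 12 leading increases, all but the passenger strand counted under 2 names. It was lowest at 3 mo for 8 of the 12 leading decreases and shared a median of 0 with a later draw for the other 4 (miR-455-3p, miR-503-5p, miR-149-5p and miR-125a-3p). Median CPM of let-7a-5p was 15761, 68343, 26389 and 20514 in the order 1, 3, 6 and 12 mo, over 26 or 27 libraries each. That of miR-30e-5p was 856, 4559, 902 and 613, and that of miR-223-3p 444, 2331, 595 and 419. For miR-191a-5p it was 248920, 33031, 184075 and 110881, and for miR-423-5p 10282, 3655, 4861 and 4743, so that the later draws of the latter lay nearer to 3 mo than to 1 mo. Detection of miR-503-5p was 27 of 27 libraries, 6 of 26, 12 of 27 and 18 of 27. The median of miR-122-5p was 22447, 44311, 47445 and 109373. Differences among these 4 times were not tested here.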

How the data were processed

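Serum small RNA libraries of rats carrying metal pellets were compared between 3 mo and 1 mo after implantation. The deposited table holds raw counts per mature miRNA, 1 column per library. Per the labels' protocols, total RNA from serum was made into libraries with a Norgen small RNA kit and read on a NextSeq. The assembly was Rnor 6.0, per the submitters' processing notes. For the aligner, the counter and the release of miRBase, this is not given in the sources used here. Every one of the 138 columns was matched to a sample by its title.

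Libraries with fewer than 20000 counts were left out. The other libraries held 70454 to 4884425 counts, and this depth limits what can be said of rare miRNAs. In R 4.3.3, edgeR 4.0.16 (with limma 3.58.1) filtered low counts by group (minimum count 10, minimum total 15), scaled libraries with TMM factors and fitted quasi-likelihood models with 1 mean for each of 14 groups of metal and time. The contrast was the mean over 7 metals of 3 mo minus 1 mo, each metal with equal weight. A miRNA was called at a Benjamini-Hochberg adjusted p under 0.05 over all miRNAs tested. Where a miRNA had at least 1 all-zero group at 1 mo and at least 1 at 3 mo, the contrast on the log scale has no defined value. Its p is then near 1. Such miRNAs are counted as not called, and a model with 1 time effect common to all metals, added after seeing the data, was run beside the contrast.

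Library values were compared by permutation within metal (100000 resamples, 2-sided). Alternatives, run with the same contrast, were DESeq2 1.42.0, other scaling, no filter, thinning to 70000 counts, a red-cell covariate, a replicate block, and leaving out each library or metal. Named are the 12 called miRNAs with the smallest p in each direction, the 10 most abundant, 14 miRNAs always given, and list members. The miRNAs detected in all 53 libraries, those with no count at 3 mo and miR-598-3p were named after their values were seen. The direction of each metal is the sign of its fitted difference. The members and lists were chosen with earlier results of these data known.

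The model was tested on simulated counts of 255 miRNAs for the 3 mo against 1 mo comparison. It called 10% of 20 miRNAs changed 2-fold, 44.4% of 18 changed 4-fold, 55% of 20 changed 8-fold and 1.02% of 197 unchanged miRNAs. Mature sequences came from RefSeq (GRCr8), matched by name for 251 of 272 miRNAs. Assembly Rnor 6.0 differs from that build, so no coordinates are given.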

Additional observations from a re-analysis of the deposited data

Results flagged for a closer look

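In 66 groups of 4 libraries (totals, miRNAs detected at equal depth and the shares of let-7a-5p, miR-30e-5p, miR-223-3p and miR-191a-5p), 5 had a highest or lowest library whose gap to the rest exceeded Dixon's 95% critical value of 0.829. Chance gives about 1 in 20 such groups. Cu at 3 mo replicate 2 stood apart in 3 ways: its total was 3354080 counts where the other 3 had 138922 to 289383, it held 167 miRNAs at 70000 counts where they held 76 to 86, and let-7a-5p took 1.26% of its counts where it took 12.3% to 13.7% of theirs. In Pb at 3 mo replicate 2, miR-191a-5p took 7.57% of the counts, against 1.12% to 2.07% in the other 3. In DU at 1 mo replicate 2, miR-223-3p took 0.00411% of the counts, against 0.0370% to 0.0420% in the others.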

How the results depend on the processing

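The 144 calls of the mean over 7 metals became 120 with DESeq2 size factors, 131 with library totals, 141 without the filter, 142 with all 56 libraries, 99 after thinning, 156 with the red-cell covariate, 155 with DESeq2, 141 with 1 common time effect, 117 (without Co) to 156 (without W) without 1 metal, and 126 to 158 without 1 library. Testing the 39 miRNAs seen in all 53 libraries alone gave 34, as fewer were tested. With a replicate block there were 121 (11 higher, 110 lower). Single miRNAs were followed only where named or on a list. Of these, miR-1-3p, miR-206-3p, miR-21-5p, miR-30d-5p, miR-451-5p, miR-98-5p (0.056), miR-194-5p, miR-375-3p, miR-199a-3p, miR-25-3p and let-7c-2-3p (with its double let-7a-1-3p) were no longer called higher. With the block miR-126a-3p (-2.63, adjusted p = 0.00428) and miR-16-5p (-1.69) were called lower. Same-numbered libraries did not deviate together (25 pairs, correlations -0.17 to 0.11, 6 best with their own number). That cannot settle whether a number is the same rat, since libraries of the same rat drawn months apart need not deviate together. The sign of miR-192-5p turned to 0.24 with DESeq2 size factors, 0.083 with library totals, 0.24 in DESeq2 and 0.10 without Co, and that of miR-155-5p to 0.080 without Co. The cause was not tested.

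Counts in single metals moved more. They were 10 in Cu, 6 in Al and 14 in Pb with DESeq2 size factors, and 10 in Cu and 13 in Pb with library totals. Without the filter they were 6 in W, 24 in Fe, 2 in Al, 19 in Pb and 4 in DU. The replicate block gave 20 in Fe, 18 in Co, 12 in Pb, 7 in Cu, 4 in Al, 2 in DU and 1 in W. With all 56 libraries there were 7 in Fe, 0 in Cu and 6 in Al, and after thinning 67 in Co, 28 in Fe, 24 in Pb, 13 in Cu and 2 each in DU and Al. The red-cell covariate gave 19 in Fe and 8 in Cu. With only miRNAs seen in all libraries there were 23 in Pb, 17 in Co, 12 in Cu, 11 in Al, 2 in DU and 1 in W. A fit of the metal alone gave 23 in Fe, 19 in Pb and 4 in DU. DESeq2 called 105 in Co, 64 in Fe, 54 in Pb, 41 in Cu, 38 in W, 37 in DU and 28 in Al. Leaving out 1 library gave 18 to 63 in Co, 0 to 38 in Cu, 2 to 23 in Fe, 4 to 19 in Pb, 0 to 4 in Al and 0 to 2 in DU. For the difference among metals there were 20 calls without the filter, 3 with the replicate block, 1 with all 56 libraries, 1 after thinning and 0 to 9 without 1 library. Against Ta there were 3 with all libraries kept and 40 in DESeq2, and against Ni 50 in DESeq2. The difference in miRNAs detected at equal depth stayed between -80.1 and -71.9 without 1 library and was -101 before thinning. The causes of these shifts were not tested.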
